A study of Homo sapiens with 24 samples.

Results

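The expression of 10 genes that cut, activate or protect the extracellular matrix was followed in SW1783 cells, a human astrocytoma line, after treatment with extracts of Schisandrae Fructus, the fruit of Schisandra chinensis. The genes are a named family, taken with earlier results of these data known: the matrix metalloproteinases MMP1, MMP2, MMP3 and MMP14, the metalloproteinase inhibitors TIMP1, TIMP2 and TIMP3, and the plasminogen activator genes PLAU, PLAUR and PLAT. All 10 were found among the 60675 genes of the deposited table, of which 19586 are protein-coding. Cells were treated for 24 h with a hot water extract (WESF, labelled SCW) at 20, 100 or 500 µg/mL or with an extract in aqueous ethanol (EESF, labelled SCE) at 12.4, 62 or 310 µg/mL, and the controls received the vehicle, 0.1% DMSO. WESF and its vehicle (vehicle A) form batch A and EESF and its vehicle (vehicle B) form batch B in the labels, with 3 libraries in each of the 8 groups and 24 libraries in all. The 3 doses of an extract are called low, medium and high. The doses of the extracts differ, and each extract was run in its own batch, so extract, dose and batch cannot be told apart in a comparison of WESF with EESF. The high doses were set by the study from a screen of toxicity to the cells. By its account 500 µg/mL WESF showed no toxicity, whereas 310 µg/mL EESF was a partly inhibitory dose. The high doses are thus not matched in their effect on viability. The libraries measure RNA only, not the amount or activity of the proteins.

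Matrix metalloproteinases are zinc proteases that are made as inactive precursors and cut collagens, proteoglycans and other matrix proteins. TIMPs bind the active proteases and block them. At the cell surface MMP14, bound to TIMP2, activates the precursor of MMP2, so the transcripts of these 3 genes encode the parts of 1 complex. In the plasminogen system, the urokinase PLAU, held by its receptor PLAUR, and the tissue activator PLAT convert plasminogen to plasmin, which cuts fibrin and matrix proteins and can activate precursors of metalloproteinases. In astrocytic tumours this machinery is known for its part in invasion of the brain.

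The total of expected counts per library was 18727797 to 32567395, with 26447834 to 28461841 in vehicle A, 20731749 to 24692309 in high-dose WESF, 18727797 to 20465712 in vehicle B and 29659110 to 32567395 in high-dose EESF. Every one of the 10 genes was above 0 in all 24 libraries. The lowest single count was 198, for MMP3, and the highest was 52916, for MMP14. Values below are CPM, that is counts set against the size of the library, after TMM scaling over the 24 libraries. A gene "rose" or "fell" only where its adjusted p was under 0.05 in edgeR's quasi-likelihood test, which was fitted across all protein-coding genes that passed a filter on low counts, with Benjamini-Hochberg adjustment over all of them. DEG (differentially expressed gene) is used where the change was also beyond 1.5-fold, which is 0.585 on the log2 scale. All 10 genes passed the filter in every comparison.

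The labelled cell type was checked first. Of 11 markers of astrocytes and other glia, 7 averaged under 0.5 CPM over the 24 libraries, namely GFAP, S100B, AQP4, ALDH1L1, SLC1A2, SOX2 and OLIG2, and GFAP, the intermediate filament that defines astrocytes, averaged 0.172 CPM. The most abundant of the list was VIM, at 4897 CPM, which is made by many mesenchymal cells, and SOX9, SLC1A3 and NES averaged 70.8, 24.4 and 5.99 CPM. Each of 9 markers of fibroblasts and pericytes averaged at least 1 CPM, from DCN at 8.83 CPM upwards, with COL1A1, the main chain of type I collagen, at 3627 CPM. In bulk libraries fewer cells of a type and less RNA per cell cannot be told apart. The mitochondrial share of the counts was 7.79% to 9.6% in high-dose WESF and 10.3% to 10.6% in vehicle A, and 11.2% to 12% in high-dose EESF and 11.6% to 11.9% in vehicle B. Its part in the changes described here was not tested.

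In the vehicle libraries the inhibitors TIMP1 and TIMP2 and the proteases MMP14 and MMP2 were the most abundant of the 10 transcripts. Levels of different genes were compared as CPM per kb of exon, averaged over the 6 vehicle libraries. TIMP1 came first, with 577 CPM per kb, followed by MMP14 with 197, TIMP2 with 112 and MMP2 with 93.8. The plasminogen activator genes lay in the middle of the order, with 31.5 CPM per kb for PLAT, 26.6 for PLAU and 13.6 for PLAUR. MMP1 reached 11.8 and TIMP3 9.05, and the stromelysin MMP3 was the lowest at 5.87 CPM per kb. The ranges of neighbouring genes over the 6 libraries did not overlap anywhere in this order. PLAU and PLAUR changed places when the length of the longest transcript was used, since PLAUR has a long exon union of 4457 bases and a longest transcript of 1610 bases.

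**Figure D1:**
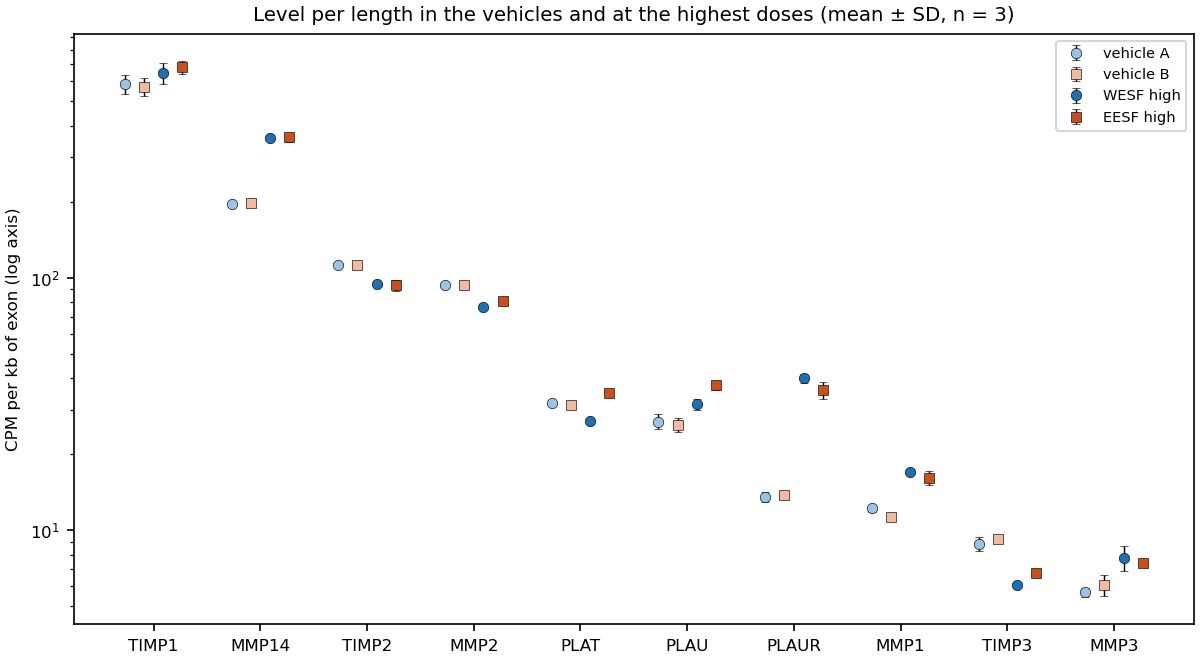
CPM per kb of exon (log axis) of the 10 genes, ordered by their level in the vehicles, with means of 3 libraries and SD bars. Pale symbols are the vehicles and dark symbols the high doses, with circles for batch A and squares for batch B. PLAUR moved from 13.6 CPM per kb in the vehicles to a level near those of PLAT and PLAU, while TIMP1 stayed first.

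At the high dose nearly every one of the 10 genes changed, mostly by less than 1.5-fold. With high-dose WESF, 5 genes rose (MMP1, MMP3, MMP14, PLAU and PLAUR), 4 fell (MMP2, TIMP2, TIMP3 and PLAT) and TIMP1 did not pass the threshold, so that 9 of 10 were called, where 68.9% of all 13129 genes tested were called. With high-dose EESF, 7 rose and 3 fell, so that all 10 were called against 58% of 13092 genes. PLAUR and MMP14 were DEGs with both extracts, and no other member was one. The background for that was 24.1% of all genes with WESF, 11.1% as higher and 13% as lower, and 17.4% with EESF, 8.21% as higher and 9.17% as lower. With so large a response across the genome, the number of members called is not particular to them. The log2 fold changes of the 10 genes had a median of 0.18 with WESF, from -0.55 to 1.56, and of 0.27 with EESF, from -0.44 to 1.37. The 3 treated and the 3 vehicle libraries did not overlap for 9 of the 10 genes with WESF, where 71.7% of all genes were apart, and for 10 of 10 with EESF, where 62.8% were.

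**Figure D2:**
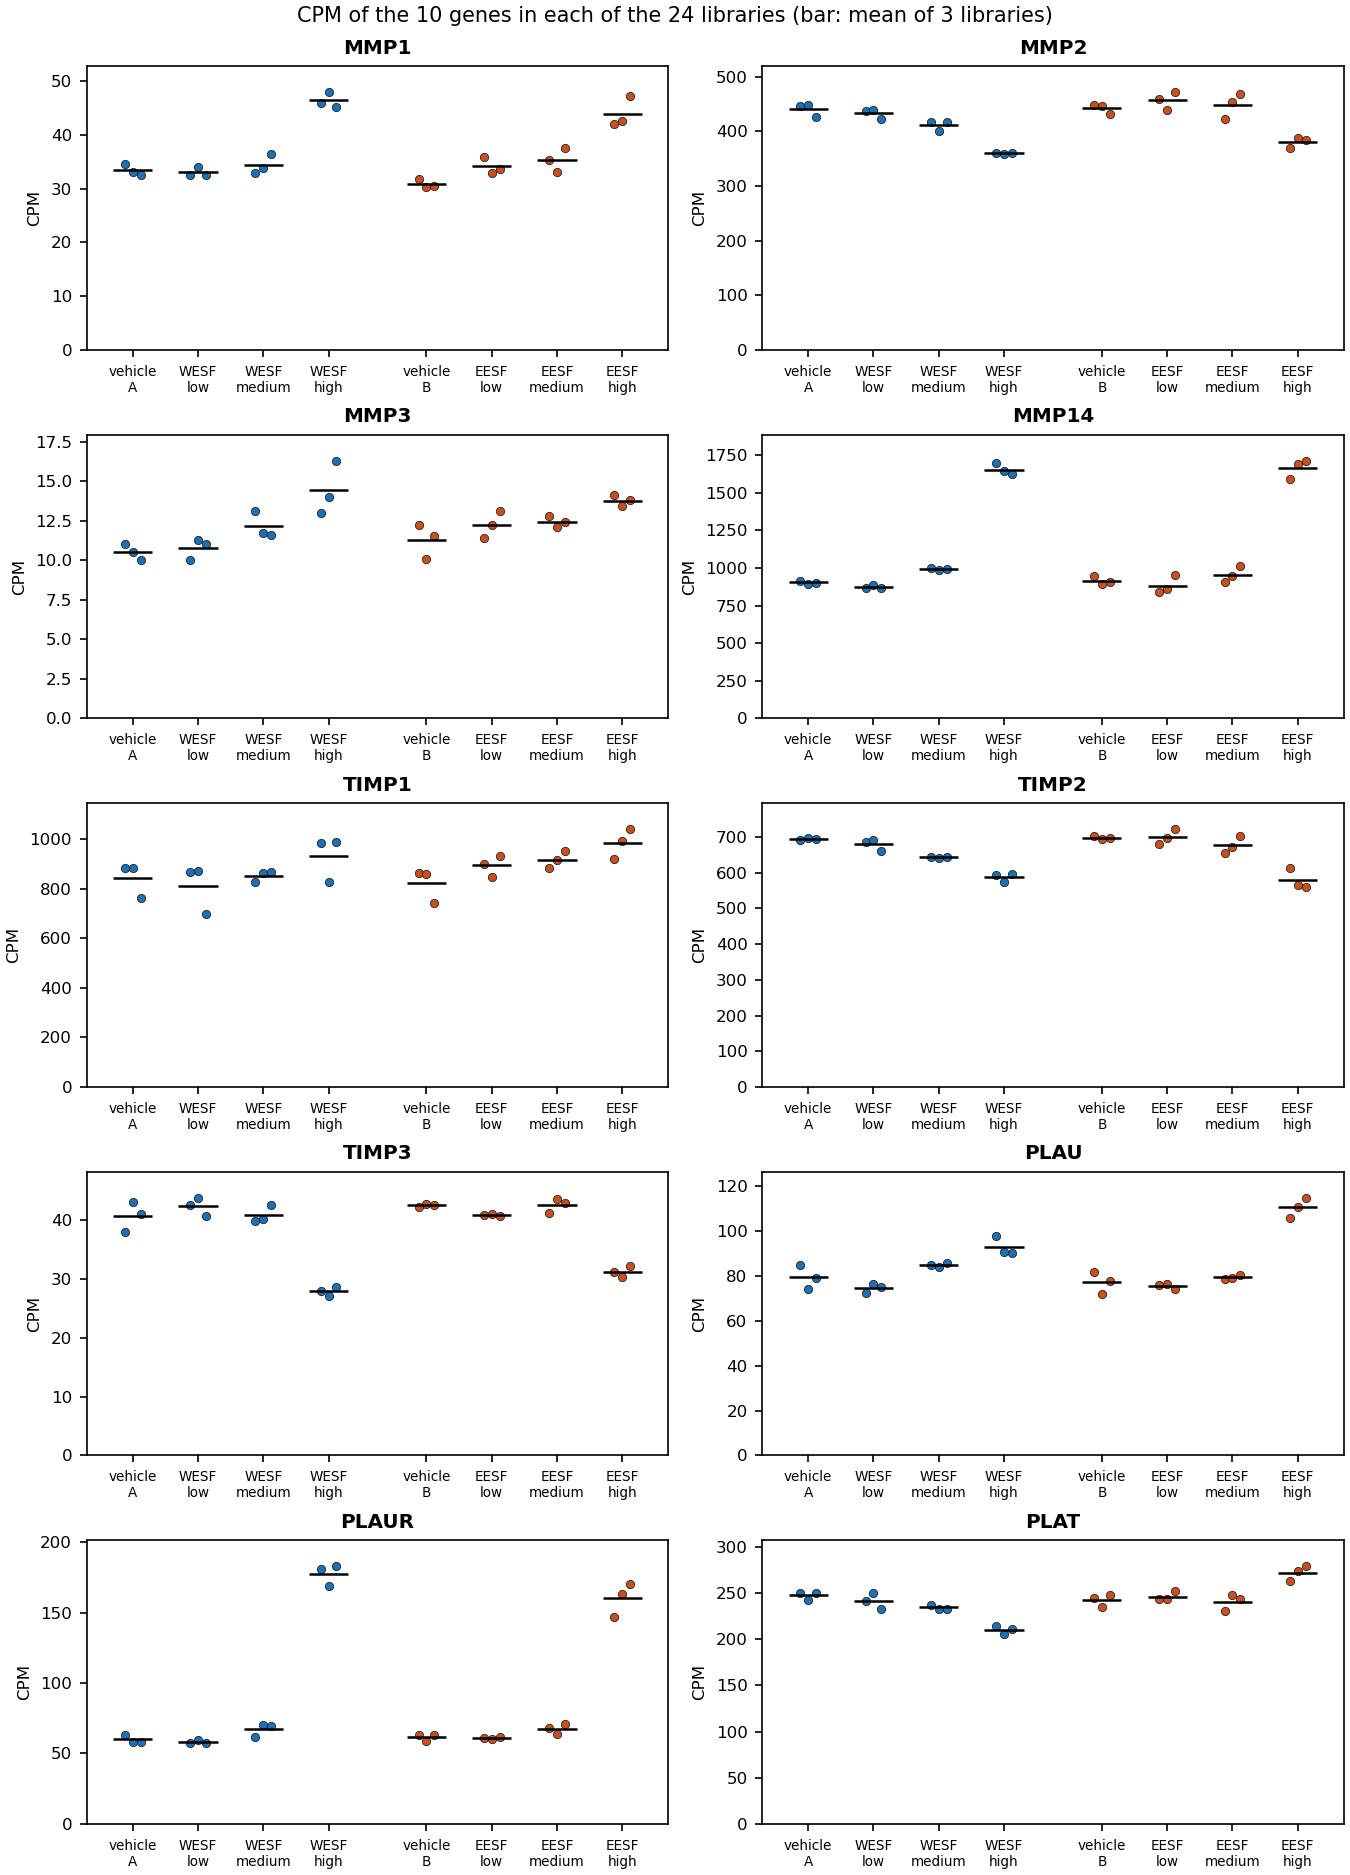
CPM of each of the 10 genes in the 24 libraries (y axes start at 0), with batch A in blue and batch B in orange and a bar at the mean of the 3 libraries of a group. PLAUR and MMP14 stood far above their vehicles at both high doses, TIMP3 stood below them, and PLAT moved down with WESF and up with EESF.

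PLAUR, the receptor that anchors urokinase at the cell surface, had the largest change of the 10 genes with both extracts. Its level was 63.1, 58.5 and 58.3 CPM in vehicle A and 181, 169 and 183 CPM in high-dose WESF. It was 63.1, 59 and 62.8 CPM in vehicle B and 147, 163 and 170 CPM in high-dose EESF. The lowest high-dose library lay above 2 times the highest vehicle library in both batches. The log2 fold change was 1.56 ± 0.0491 (SE, n = 3 per group) with WESF, with an adjusted p of 8.85e-14, and 1.37 ± 0.0645 with EESF, with an adjusted p of 1.58e-08. The medium doses gave 0.16 (adjusted p = 0.113) and 0.14 (adjusted p = 0.0884), so that most of the rise lay between the medium and the high dose. The call for medium-dose WESF depended on single libraries, with adjusted p of 0.0271 without vehicle A replicate 1 and 0.0454 without WESF medium replicate 1.

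MMP14, the membrane-bound protease that activates MMP2 and cuts fibrillar collagen, was the other DEG. Its level was 914, 894 and 903 CPM in vehicle A and 1695, 1643 and 1625 CPM in high-dose WESF. In batch B it was 948, 892 and 910 CPM in the vehicle and 1589, 1691 and 1714 CPM at the high dose. The groups were far apart, and the change was close to that of the other extract, with a log2 fold change of 0.87 ± 0.0419 (adjusted p = 1.55e-11) for WESF and 0.86 ± 0.0513 (adjusted p = 8.26e-08) for EESF. In medium-dose WESF the 3 libraries, at 1000, 987 and 991 CPM, also lay above all 3 vehicle libraries. In that comparison 24.5% of 13112 genes were apart in either direction. In low-dose WESF the 3 libraries, at 867, 889 and 866 CPM, lay below all 3 vehicle libraries, where 8.45% of 13131 genes were apart. The medium-dose change of 0.13 missed the threshold with an adjusted p of 0.0556. This value became 0.0269 without vehicle A replicate 1, while DESeq2 gave 0.00934.

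For PLAUR and MMP14, the 2 DEGs, the stretches around 2 kinds of known regulatory motif in their promoters are shown. The promoter windows are those of RefSeq on GRCh38.p14, from 250 bases before to 50 bases after a transcription start, and 5 of the 10 genes have one (MMP14, PLAU, PLAUR, TIMP1 and TIMP3), whereas MMP1, MMP2, MMP3, TIMP2 and PLAT were matched to none. The letters searched on both strands were TGANTCA for AP-1, AGGAAG for ETS factors, GGGA and CC with 4 bases between them for NF-kappaB and TATAAA for the TATA box. Capitals mark the match, each sequence is given 5′ to 3′ on the strand of its gene, and positions are those of the match's first base counted from the start.
PLAUR, AP-1 at -186, chr19:43670339-43670365, minus strand: cacaactccaTGAGTCAgggccgagcc
PLAUR, NF-kappaB at -96, chr19:43670246-43670275, minus strand: cgggaggaggGGGAGGCGCCcacgcatctg
MMP14, NF-kappaB at -35, chr14:22836540-22836569, plus strand: tgtgggagaaGGGAGGGACCagaggagaga
The PLAUR window also held the ETS letters at -15, and MMP14's window held none of the other 3 motifs. The ETS letters were found in 1 of the 2 PLAU windows, at -221, and in the TIMP1 window, at -87, and the TIMP3 window held none of the 4 motifs. Of all 35116 windows, 7.71% held the AP-1 letters, 33.6% the ETS letters, 25.6% the NF-kappaB letters and 11.5% the TATA letters. The GENCODE annotation starts PLAUR farther upstream, at 43670547, so that both PLAUR stretches lie inside its gene, and it starts MMP14 at 22836560, within the MMP14 stretch. A match describes the letters only and is not evidence of binding, and a link to the rises was not tested.

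The interstitial collagenase MMP1 and the stromelysin MMP3, neighbours on chromosome 11, rose by less than 1.5-fold with both extracts. MMP1 had 34.7, 33.2 and 32.6 CPM in vehicle A and 46, 48 and 45.3 CPM in high-dose WESF, and 31.9, 30.4 and 30.6 CPM in vehicle B and 42.1, 42.7 and 47.2 CPM in high-dose EESF. All high-dose libraries lay above all vehicle libraries. The log2 fold changes of MMP1 were 0.47 ± 0.0506 (adjusted p = 3.36e-07) with WESF and 0.50 ± 0.0638 (adjusted p = 2.96e-05) with EESF. MMP3 had 11, 10.5 and 10 CPM in vehicle A and 13, 14 and 16.3 CPM in high-dose WESF, a log2 fold change of 0.45 ± 0.087 (adjusted p = 0.00019). In batch B it had 12.2, 10.1 and 11.5 CPM in the vehicle and 14.1, 13.4 and 13.8 CPM at the high dose, a log2 fold change of 0.29 ± 0.0827 (adjusted p = 0.0101). The lowest EESF library of MMP3 lay little above the highest vehicle library, and its call was lost without vehicle B replicate 2 (adjusted p = 0.0731) and with the counts thinned to the smallest library (adjusted p = 0.0662). Both genes have exons that overlap the pseudogene WTAPP1 on the opposite strand, and the strand setting of the counting is not given in the sources used here. The expected count was not a whole number in 0 of the 24 libraries for MMP1 and in 1 for MMP3. Whether reads of the pseudogene enter their counts was not tested.

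The gelatinase MMP2, which cuts denatured collagen and type IV collagen of basement membranes, fell with both extracts while its activator MMP14 rose. MMP2 was at 447, 448 and 427 CPM in vehicle A and 361, 358 and 361 CPM in high-dose WESF, and at 449, 446 and 431 CPM in vehicle B and 369, 388 and 384 CPM in high-dose EESF. The groups did not overlap. The log2 fold changes were -0.29 ± 0.0411 (adjusted p = 7.03e-06) and -0.22 ± 0.0485 (adjusted p = 0.00192).

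TIMP2, which inhibits MMP2 and links its precursor to MMP14, fell by a similar amount. It had 691, 696 and 695 CPM in vehicle A and 593, 575 and 595 CPM in high-dose WESF, a log2 fold change of -0.24 ± 0.0409 (adjusted p = 4.93e-05). It had 703, 693 and 697 CPM in vehicle B and 612, 566 and 561 CPM in high-dose EESF, a change of -0.27 ± 0.0501 (adjusted p = 0.000575). The 6 vehicle libraries lay between 691 and 703 CPM, and all high-dose libraries lay below them. The expected counts of MMP2 and TIMP2 were not whole numbers in 24 and 23 of the 24 libraries, so RSEM had shared out some of their reads with other genes. TIMP2 overlaps exons of CEP295NL on its own strand, and MMP2 those of a transcript that GENCODE lists for further experimental testing.

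TIMP3, the inhibitor that binds to the matrix itself and also blocks several ADAM proteases, had the largest fall of the 10 genes. It was at 38, 43.1 and 41 CPM in vehicle A and 28, 27.1 and 28.6 CPM in high-dose WESF. In batch B it was at 42.2, 42.7 and 42.5 CPM in the vehicle and 31.2, 30.3 and 32.2 CPM at the high dose. The high-dose libraries lay well below the vehicles in both batches, with log2 fold changes of -0.55 ± 0.0588 (adjusted p = 3.01e-07) and -0.44 ± 0.0562 (adjusted p = 2.88e-05). Neither reached 1.5-fold, although TIMP3 would be counted as a DEG with WESF without vehicle A replicate 1, where the change was -0.60.

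TIMP1, a secreted inhibitor of most soluble metalloproteinases, varied more between replicates than TIMP2 did. It had 886, 886 and 763 CPM in vehicle A and 984, 828 and 991 CPM in high-dose WESF, and the groups overlapped. The log2 fold change of 0.14 ± 0.0667 had an adjusted p of 0.0694. This became 0.0317 without vehicle A replicate 1, 0.00417 without WESF high replicate 2 and 0.0407 with the counts thinned to the smallest library. The log2 fold change itself ranged from 0.07 to 0.22 when 1 library was left out. In batch B it had 864, 860 and 745 CPM in the vehicle and 921, 994 and 1042 CPM at the high dose, and it rose by 0.26 ± 0.0661 (adjusted p = 0.00503). Thus of the 3 TIMPs, TIMP2 and TIMP3 fell with both extracts and TIMP1 did not fall with either.

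PLAU, the urokinase that binds PLAUR, rose with both extracts, and more with EESF. It was at 85, 74.3 and 79 CPM in vehicle A and 97.8, 90.5 and 90.1 CPM in high-dose WESF, a log2 fold change of 0.22 ± 0.0532 (adjusted p = 0.00141). It was at 81.7, 72.2 and 77.9 CPM in vehicle B and 106, 111 and 115 CPM in high-dose EESF, a log2 fold change of 0.52 ± 0.0594 (adjusted p = 1.37e-05). The high-dose libraries were above the vehicles in both batches, by a wider gap in batch B. The expected counts of PLAU were not whole in any library, and its exons overlap the lncRNA C10orf55 on the opposite strand.

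PLAT, the tissue activator, moved in opposite directions. In batch A it went from 250, 242 and 250 CPM in the vehicle to 214, 205 and 211 CPM with high-dose WESF, a log2 fold change of -0.24 ± 0.0418 (adjusted p = 7.96e-05). In batch B it went from 244, 235 and 248 CPM in the vehicle to 263, 274 and 279 CPM with high-dose EESF, a log2 fold change of 0.17 ± 0.0501 (adjusted p = 0.0132). The groups did not overlap in either batch. The rise with EESF is the less certain of these changes, since its adjusted p was 0.0915 without vehicle B replicate 2, 0.0526 without EESF high replicate 2 and 0.0554 without EESF high replicate 3.

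Whether a gene responded differently to high-dose EESF than to high-dose WESF was tested as an interaction over 12 libraries, where a value above 0 means a higher log2 fold change with EESF. Of the 10 genes, 2 passed, where 26% of 13376 genes did, 12.7% with the higher value for EESF and 13.3% with the lower. PLAT differed by 0.41 ± 0.058 (adjusted p = 0.00023) and PLAU by 0.30 ± 0.082 (adjusted p = 0.015), both higher with EESF, although the call of PLAU was lost without vehicle B replicate 2 (adjusted p = 0.0553). PLAUR differed by -0.19 ± 0.081 (adjusted p = 0.0961, and 0.0494 without EESF high replicate 3). For the others no difference was shown. The 95% interval of the difference was -0.12 to 0.11 on the log2 scale for MMP14, -0.11 to 0.19 for MMP1, -0.04 to 0.19 for MMP2, -0.14 to 0.09 for TIMP2, -0.05 to 0.26 for TIMP3, -0.10 to 0.33 for TIMP1 and -0.40 to 0.07 for MMP3. None of the 10 genes passed this test at the medium dose, where 0.203% of all genes did, or at the low dose, where 0.00756% did. With a block for the vehicles alone, added after seeing the data, 606 and 223 genes passed at these doses, with none of the 10 among them.

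**Figure D3:**
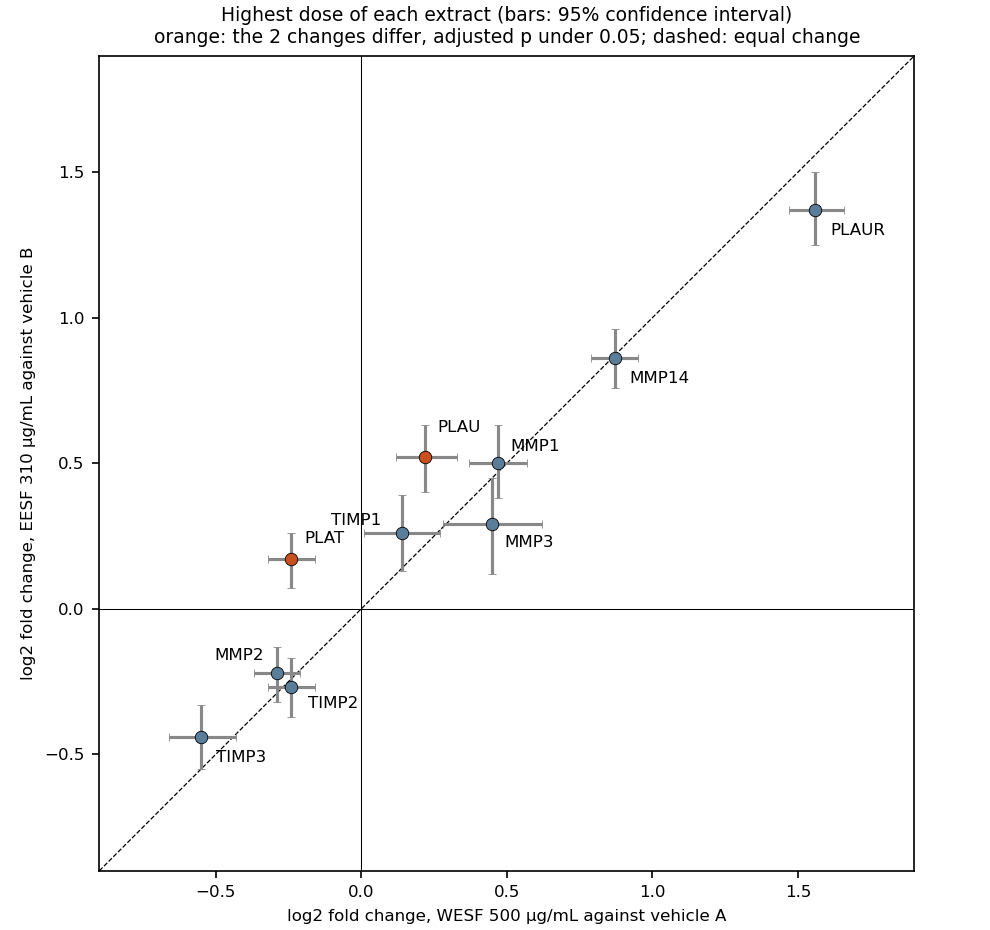
Log2 fold change of the 10 genes with high-dose EESF (y axis) against that with high-dose WESF (x axis), with 95% confidence intervals and a dashed line of equal change. PLAT, at -0.24 and 0.17, and PLAU, at 0.22 and 0.52, are drawn in orange because their changes differed between the extracts, and the other 8 genes lie near the line.

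Below the high dose 1 change of the 10 genes passed the threshold. With medium-dose WESF none of them did, against 4.1% of 13112 genes, 1.89% as higher and 2.2% as lower. Their log2 fold changes lay between -0.11, for TIMP2, and 0.20, for MMP3, and adjusted p between 0.0556 and 0.982. With medium-dose EESF only MMP1 rose, by 0.19 ± 0.0599 (adjusted p = 0.0386), with 35.3, 33.2 and 37.5 CPM against 31.9, 30.4 and 30.6 CPM in the vehicle, where 15.4% of 12978 genes were called, 6.9% as higher and 8.48% as lower. This call was lost with DESeq2 (adjusted p = 0.0954) and without vehicle B replicate 2, vehicle B replicate 3, EESF medium replicate 1 or EESF medium replicate 3 (adjusted p of 0.141, 0.101, 0.0863 and 0.182). At the low doses no member passed, against 0% of 13131 genes with WESF and 9.35% of 12892 genes with EESF (3.11% as higher and 6.24% as lower). No member was a DEG below the high dose, where 0.275% of all genes were with medium-dose WESF, 0.0915% as higher and 0.183% as lower, 0.755% with medium-dose EESF, 0.47% as higher and 0.285% as lower, and 0.271% with low-dose EESF, 0.155% as higher and 0.116% as lower. For low-dose WESF 0 of the genes tested passed in edgeR, 470 had an unadjusted p under 0.05, and DESeq2 called 1. In edgeR 3 passed without the filter on low counts, and 1 passed with total counts in place of TMM, without vehicle A replicate 3 and without WESF low replicate 1.

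The high dose was also set against the medium dose of the same extract. With WESF 6 members were higher and 4 lower at the high dose, all 10 past the threshold against 67.6% of 13094 genes, 33.6% as higher and 34% as lower. With EESF 5 were higher, 3 were lower and 2 (MMP3 and TIMP1) did not pass, against 50.9% of 13263 genes, 25.6% as higher and 25.3% as lower. PLAUR rose by 1.41 ± 0.0477 (adjusted p = 5.06e-15) and 1.24 ± 0.0631 (adjusted p = 5.41e-09), MMP14 by 0.74 ± 0.036 (adjusted p = 1.04e-12) and 0.80 ± 0.0572 (adjusted p = 1.12e-07). These were the only members past 1.5-fold in either comparison. When 1 library was left out, 8 to 10 members passed the adjusted threshold with WESF and 8 to 9 with EESF. Across all genes 19.1% were DEGs with WESF, 8.63% as higher and 10.5% as lower, and 11.6% with EESF, 5.03% as higher and 6.54% as lower. TIMP3 fell by 0.55 and 0.44 between the medium and the high dose, the same sizes as against the vehicles, and its medium-dose libraries, at 39.9 to 42.5 CPM with WESF and 41.2 to 43.5 CPM with EESF, overlapped those of the vehicles.

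**Figure D4:**
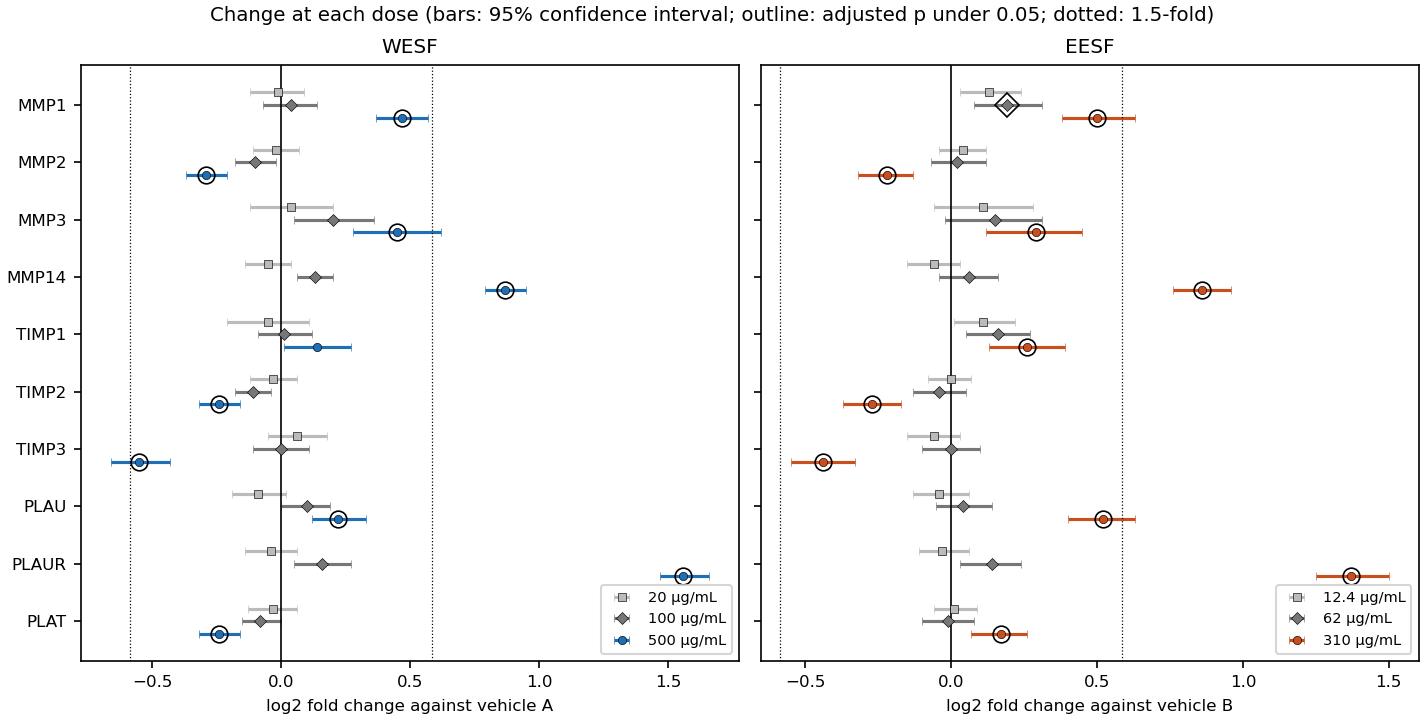
Log2 fold change of the 10 genes at the low, medium and high dose of WESF (left) and EESF (right) against the vehicle of the batch, with 95% confidence intervals. Outlined symbols passed the adjusted threshold and dotted lines mark 1.5-fold. Apart from MMP1 at 62 µg/mL EESF, with 0.19, all outlined symbols belong to the high doses.

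The vehicles of the batches were compared as well. No member passed between vehicle B and vehicle A in the unblocked fit, with log2 differences of -0.11 (MMP1) to 0.10 (MMP3), where 0% of 13001 genes passed, 371 had an unadjusted p under 0.05, and DESeq2 called 3. The libraries of MMP1 were apart all the same, at 30.4 to 31.9 CPM in vehicle B and 32.6 to 34.7 CPM in vehicle A (unadjusted p = 0.0493 in edgeR), as were those of 8.81% of all genes. Vehicle libraries with the same replicate number in both batches resembled each other. With the replicate number as a block 478 genes passed, among them TIMP1, with a difference of -0.04 ± 0.00897 (adjusted p = 0.0101). In TIMP1 replicate 3 was the lowest library in both vehicles, at 763 and 745 CPM, and in low-dose WESF, at 698 CPM, and the highest in the other 5 groups, at 868 to 1042 CPM.

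The balance of partners was described by ratios of CPM per kb within each library. The pairs were chosen with the values known, so no test was made. MMP14 to TIMP2 was 1.75 ± 0.0267 (SD, n = 3) in vehicle A and 3.78 ± 0.0969 in high-dose WESF, and 1.76 ± 0.0431 in vehicle B and 3.87 ± 0.331 in high-dose EESF. It was already 2.09, 2.07 and 2.06 in the medium-dose WESF libraries, above all 3 of vehicle A (1.78, 1.72 and 1.75). MMP2 to TIMP2, whose transcripts fell together, stayed at 0.837 and 0.809 with vehicle A and high-dose WESF and at 0.836 and 0.867 with vehicle B and high-dose EESF. The receptor to ligand ratio, PLAUR to PLAU, went from 0.50 ± 0.0182 to 1.27 ± 0.0675 with WESF and from 0.528 ± 0.0154 to 0.955 ± 0.0323 with EESF. The size of this ratio depends on the length used. Per kb of the longest transcript PLAUR was at 37.2 and PLAU at 29.9 CPM in vehicle A, and at 110 and 34.9 CPM in high-dose WESF, so that PLAUR was above PLAU already in the vehicle. MMP1 to TIMP1 went from 0.021 ± 0.00142 to 0.0265 ± 0.00359 with WESF and from 0.02 ± 0.00157 to 0.0236 ± 0.000769 with EESF, and the high-dose libraries lay above those of the vehicle in both batches.

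**Figure D5:**
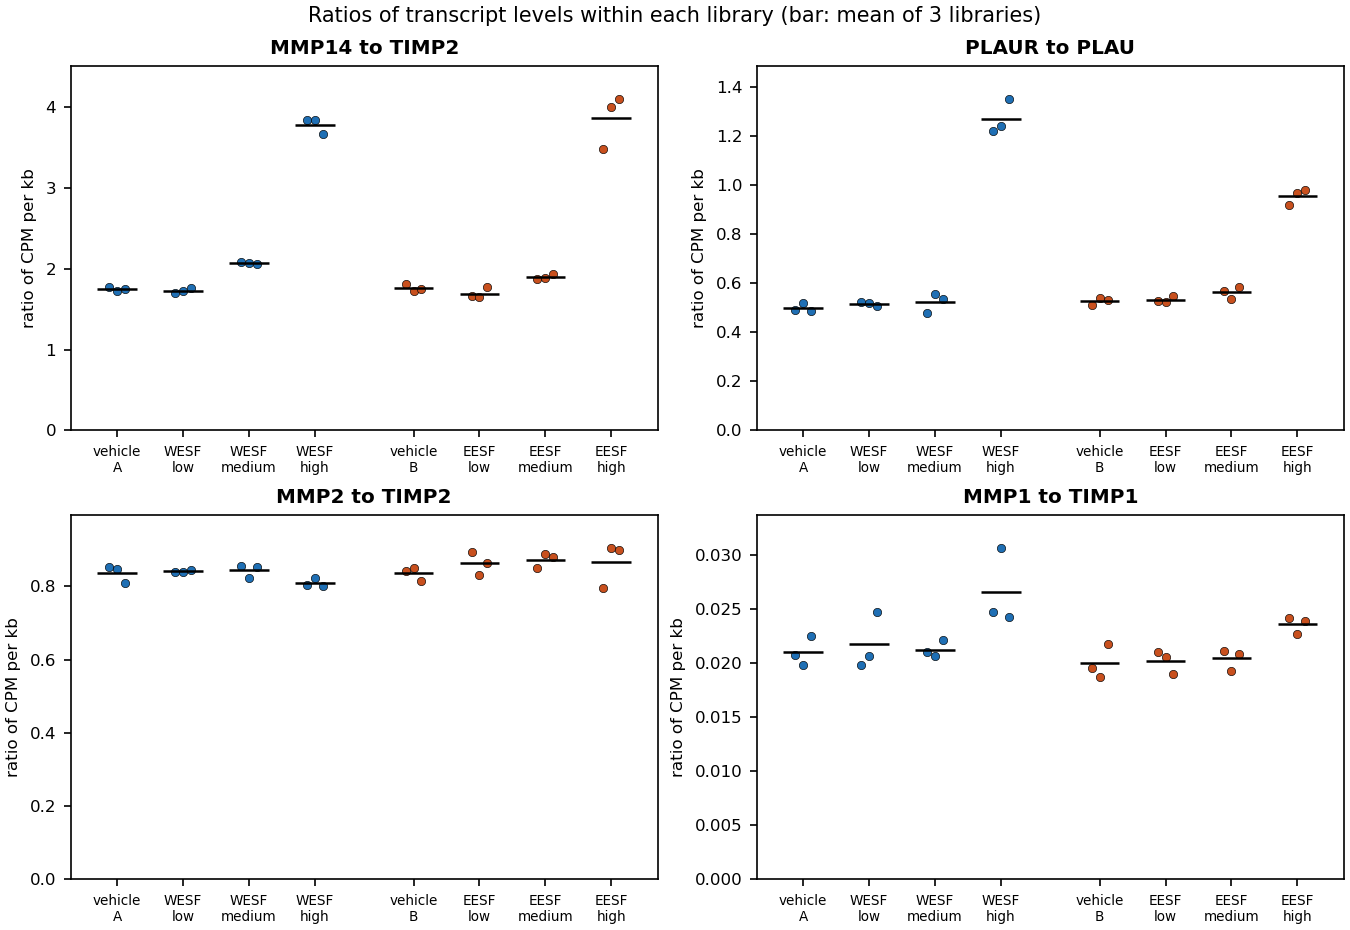
Ratios of CPM per kb within each of the 24 libraries (y axes start at 0), with batch A in blue, batch B in orange and a bar at the mean of 3 libraries. MMP14 to TIMP2 was highest at the high doses, MMP2 to TIMP2 lay near its vehicle level in all groups, and PLAUR to PLAU was higher with WESF (1.27) than with EESF (0.955).

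Of 8 inhibitors outside the 10 genes 6 were tested. With high-dose WESF 2 rose and 2 fell, with a median log2 fold change of 0.07, and with high-dose EESF 2 rose and 1 fell, with a median of -0.02, where 34.3% and 29.3% of all genes rose and 34.6% and 28.7% fell. TFPI2, a Kunitz inhibitor of plasmin, rose by 0.60 and 0.39 and SERPINB2, an inhibitor of urokinase, by 0.30 and 0.39. TIMP4 fell by 0.93 and 0.59, from 7.82 ± 0.128 to 4.12 ± 0.289 CPM and from 7.28 ± 0.799 to 4.82 ± 0.495 CPM. SERPINE2, with -0.06 (adjusted p = 0.33) for EESF and 0.00 (adjusted p = 0.989) for WESF, and RECK, a membrane-anchored inhibitor, with 0.14 (adjusted p = 0.0689) and 0.03 (adjusted p = 0.783), did not pass. RECK did pass for WESF without vehicle A replicate 3 (adjusted p = 0.048) and without WESF high replicate 2 (adjusted p = 0.0364).

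Of the metalloproteinases outside the 10 genes, more fell than rose. Of 19 listed, 11 were tested. With WESF 2 rose and 6 fell, with a median log2 fold change of -0.33, and with EESF 1 rose and 5 fell, with a median of -0.25. Across all genes 34.3% rose and 34.6% fell with WESF, with a median of 0.000823, and 29.3% and 28.7% with EESF. MMP16, a membrane-type relative of MMP14, fell from 99.2 ± 8.76 to 52.7 ± 0.77 CPM with WESF (-0.92, adjusted p = 6.11e-10) and from 100 ± 10.5 to 41.4 ± 5.79 CPM with EESF (-1.28, adjusted p = 4.98e-07). It also fell at the medium doses, by 0.37 (adjusted p = 0.00659) and 0.38 (adjusted p = 0.00144). The membrane-type MMP15 fell by 0.84 and 0.49 and MMP24 by 0.33 and 0.37, and the epilysin MMP28 by 0.81 and 0.51, the last with an adjusted p of 0.0199 that became 0.0635 without vehicle B replicate 3 and 0.0582 without EESF high replicate 1, and was 0.0765 with DESeq2. Of the other membrane-bound enzymes tested, named after their values were seen, MMP17 fell by 0.52 (adjusted p = 0.0181) with WESF and gave -0.35 (adjusted p = 0.265) with EESF, and MMP25 gave 0.33 (adjusted p = 0.357) with WESF and rose by 0.93 (adjusted p = 0.0174) with EESF, values for which the alternatives were not run. The stromelysin MMP10 and the gelatinase MMP9, near 1 CPM, rose with WESF by 0.61 (adjusted p = 0.0303) and 0.75 (adjusted p = 0.0231). DESeq2 gave adjusted p of 0.0999 and 0.074 for them, and the calls were lost in 4 of 6 fits without 1 library for MMP10 (up to an adjusted p of 0.138) and in 3 of 6 for MMP9 (up to 0.125). The collagenase MMP13 averaged at most 0.123 CPM in the vehicles and at the high doses and was not tested.

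The substrate of the plasminogen activators was nearly absent as a transcript. PLG, which encodes plasminogen and is made mainly by the liver, did not exceed 0.122 CPM in any of the 24 libraries, and its protein was not measured. Of the plasminogen receptors and partners, 6 of 7 listed were tested, of which 4 fell and 2 rose with WESF (34.6% and 34.3% of all genes) and 3 fell and 1 rose with EESF (28.7% and 29.3% of all genes). ANXA2, the annexin that binds plasminogen and PLAT at the cell surface, fell from 1211 ± 85 to 797 ± 19.5 CPM with WESF (-0.61, adjusted p = 1.25e-08) and from 1132 ± 85.5 to 847 ± 52.4 CPM with EESF (-0.42, adjusted p = 0.000134), and its partner S100A10 fell by 0.42 and 0.34. MRC2, which binds PLAUR and takes up collagen, rose by 0.19 with WESF and by 0.15 with EESF, the latter lost without vehicle B replicate 2 (adjusted p = 0.0902), vehicle B replicate 3 (0.0774) or EESF high replicate 2 (0.125). LRP1, the clearance receptor for protease and serpin complexes, fell by 0.38 with EESF (adjusted p = 0.000154). It also fell at the lower doses, with 266 ± 9.72 CPM in vehicle B and 212 ± 6.82, 207 ± 17.3 and 205 ± 13.4 CPM at the low, medium and high dose (adjusted p of 0.00131 and 0.00099 at the low and medium dose). With WESF it was 0.10 higher at an adjusted p of 0.0482, which did not hold in 5 of 6 fits without 1 library (up to 0.141).

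Of 7 activators and surface partners of metalloproteinases 6 were tested, and the clear changes were falls of CAV1, by 1.02 and 0.80, and of CD44, by 0.72 and 0.48. Caveolin-1 organises membrane domains in which MMP14 is internalised, and CD44 is a hyaluronan receptor that MMP14 can cut. FURIN, a convertase that activates MMP14, gave 0.06 (adjusted p = 0.223) with WESF and rose by 0.18 (adjusted p = 0.0123) with EESF. The call with EESF was lost without vehicle B replicate 3 (adjusted p = 0.0619) or EESF high replicate 2 (adjusted p = 0.0681). BSG, the surface protein EMMPRIN, gave 0.07 (adjusted p = 0.242) with WESF and rose by 0.19 (adjusted p = 0.0439) with EESF. The second value did not pass in 4 of 6 fits without 1 library (up to 0.179). With WESF 0 of the 6 rose and 2 fell, where 34.3% and 34.6% of all genes did, and with EESF 2 rose and 2 fell, where 29.3% and 28.7% did, so that apart from the lack of rises with WESF these counts lie near the background.

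Among 15 ADAM and ADAMTS proteases 4 rose and 7 fell with WESF and 4 rose and 8 fell with EESF, with medians of -0.16 and -0.22. Of all genes 34.3% rose and 34.6% fell with WESF and 29.3% and 28.7% with EESF, so that the number of rises lies near that share. The aggrecanase ADAMTS4 had the largest rise of the list, from 0.756 ± 0.105 to 5.29 ± 0.233 CPM with WESF (2.79, adjusted p = 2.75e-10) and from 0.863 ± 0.124 to 3.32 ± 0.264 CPM with EESF (1.94, adjusted p = 3.7e-06). ADAMTS6 rose by 1.48 and 1.15. The other main aggrecanase, ADAMTS5, fell by 0.60 (adjusted p = 0.0186) and 0.81 (adjusted p = 0.00465). Its WESF call was lost with DESeq2 (adjusted p = 0.0787) and without vehicle A replicate 3, WESF high replicate 2 or WESF high replicate 3 (adjusted p of 0.076, 0.0645 and 0.0567). ADAMTS14, which trims procollagen, fell by 0.88 and 0.70, and ADAMTS9 by 0.47 and 1.12. ADAMTS9 fell with the lower doses of EESF too, by 0.45 (adjusted p = 0.0225) at the low and 0.61 (adjusted p = 0.00288) at the medium dose. ADAMTS1 gave 0.03 (adjusted p = 0.626) with WESF and -0.22 (adjusted p = 0.0273) with EESF, and the EESF value did not pass in 4 of 6 fits without 1 library (up to 0.123).

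Transcription factors of the AP-1 and ETS families, which are known to act on promoters of metalloproteinase and plasminogen activator genes, changed as well. Of 12 tested at the high dose, 8 rose and 2 fell with WESF, with a median of 0.44, and 6 rose and 3 fell with EESF, with a median of 0.20, where 34.3% of all genes rose and 34.6% fell with WESF and 29.3% and 28.7% with EESF. FOSL1 was the most abundant of the 5 named here and went from 294 ± 13.2 to 564 ± 58.2 CPM with WESF (0.94, adjusted p = 9.6e-10) and from 325 ± 13.6 to 653 ± 41.5 CPM with EESF (1.00, adjusted p = 7.74e-08). JUN rose by 1.05 and 0.68, ATF3 by 1.74 and 1.00, FOSB by 1.57 and 0.81, and the ETS factor ETV4 by 1.16 and 1.15. The factors that fell, which are named after their values were seen, were JUNB, by 0.59 and 0.28, JUND with WESF, by 0.37, and FOS and FOSL2 with EESF, by 0.75 and 0.44. Below the high dose, 1 of the 12 rose and 0 fell with medium-dose WESF (JUN, by 0.19, adjusted p = 0.0212), where 1.89% of all genes rose and 2.2% fell. With both the medium and the low dose of EESF 1 rose and 1 fell. Of all genes 6.9% rose and 8.48% fell with medium-dose EESF, and 3.11% and 6.24% with low-dose EESF. The values of these factors stand beside those of the 10 genes, and a link between them was not tested.

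Markers of cell identity changed with the treatments too, some of them already below the high dose. With high-dose WESF 3 of 4 tested glial markers fell and 0 rose, and 8 of 9 fibroblast and pericyte markers fell and 1 rose. With high-dose EESF the counts were 3 of 4 and 8 of 9 as lower, with 0 higher in either list. Of all genes 34.6% fell and 34.3% rose with WESF and 28.7% fell and 29.3% rose with EESF. The glutamate transporter SLC1A3 fell by 1.62 and 1.39 and SOX9 by 0.69 and 0.82. At the medium dose, where 2.2% of all genes fell with WESF and 8.48% with EESF, 2 of the 4 glial markers fell with each extract, SLC1A3 by 0.36 (adjusted p = 0.0055) and 0.30 (adjusted p = 0.0044) and SOX9 by 0.24 (adjusted p = 0.0151) and 0.23 (adjusted p = 0.0224). With medium-dose EESF, COL3A1 of the fibroblast list fell by 0.25 (adjusted p = 0.0121) and PTPRC by 0.35 (adjusted p = 0.0258). Of the 3 endothelial markers tested with medium-dose WESF, 1 fell as a DEG, where 0.183% of all genes were DEGs as lower. It was not KDR (0.14, adjusted p = 0.282), and the alternatives were not run for it. Without KDR the endothelial list summed to 2.55 ± 0.192 CPM in vehicle A and 2.12 ± 0.291 CPM in medium-dose WESF, so this marker lay at a low level. With low-dose EESF 1 of 9 fibroblast and pericyte markers fell, where 6.24% of all genes did. The summed fibroblast and pericyte list was 6357 ± 152 CPM in vehicle A and 5562 ± 151 CPM in high-dose WESF, and 6328 ± 171 and 5882 ± 124 CPM in batch B. Without COL1A1 it was 2559 ± 62.8 and 2616 ± 74 CPM in batch A and 2533 ± 59.8 and 2478 ± 47.7 CPM in batch B. Without this gene the sum thus did not fall in batch A and fell only slightly in batch B. The glial sum, which VIM makes up almost alone, was 4943 ± 44.8 and 4872 ± 100 CPM and 5042 ± 13.1 and 5348 ± 197 CPM. Without VIM the glial sum went from 121 ± 5.8 to 65.3 ± 0.605 CPM and from 125 ± 5.94 to 66.6 ± 3.49 CPM. Of 7 markers of microglia and macrophages 4 averaged under 0.5 CPM (AIF1, CX3CR1, ITGAM and CD14), while CD68 led at 210 CPM and rose by 0.29 (adjusted p = 7.61e-05) and 0.43 (adjusted p = 3.01e-05). The sum of the list, which CD68 sets, went from 195 ± 5.35 to 227 ± 16.1 CPM and from 214 ± 11.8 to 274 ± 4.62 CPM, and without CD68 from 14.1 ± 0.381 to 4.07 ± 0.0956 CPM and from 13.8 ± 0.606 to 4.31 ± 0.339 CPM. PTPRC, at a mean of 7.46 CPM, fell by 2.26 and 2.38 and CSF1R by 1.32 and 0.96. The endothelial markers CDH5 and VWF and the neuron markers RBFOX3 and STMN2 were also under 0.5 CPM. KDR, the most abundant endothelial marker, was at 36.1 CPM, gave 0.13 (adjusted p = 0.0883) with WESF and rose by 0.28 (adjusted p = 0.00392) with EESF. Of the 3 endothelial markers tested 0 rose and 1 fell with WESF (PECAM1, by 0.76, adjusted p = 0.0418), and 1 rose and 0 fell with EESF. TUBB3, the most abundant neuron marker, was at 98.8 CPM and fell by 0.88 and 0.42. Of the neuron markers 2 of 4 tested fell with WESF and 1 rose, namely RBFOX3 (adjusted p = 3.83e-05) at its low level, and 2 of 3 tested fell with EESF and 0 rose. The part of these shifts in the changes of proteases and inhibitors was not tested.

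Genes whose profile over the 24 libraries was most like that of PLAUR and of TIMP3 were ranked by Pearson's r over 12998 genes, taken on log2(CPM + 0.5) less the mean of the vehicle of the same batch. The r is given as a description, since the 6 high-dose libraries stand apart from the other 18 and set most of it. Closest to PLAUR were ANGPTL4 (r = 0.995), CSNK1E (0.994), AKR1C1 (0.993), TRIB3 (0.991) and THBD (0.990), which encode a lipase inhibitor, a casein kinase, an aldo-keto reductase, a pseudokinase and thrombomodulin, and MMP14 came 6th (0.990). For MMP1 the r was 0.923 and for TIMP3 it was -0.964. Closest to TIMP3 were CAP2 (0.980), SYTL2 (0.979), EZH2 (0.975), TSHZ2 (0.974) and PER3 (0.973). PLAT was close to neither, with r of -0.142 to PLAUR and 0.163 to TIMP3.

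For reference, GENCODE release 44 places the genes on GRCh38 as follows. MMP1 lies at chr11:102789401-102798160 and MMP3 at chr11:102835801-102843609, both on the minus strand. MMP2 lies at chr16:55389700-55506691 on the plus strand and MMP14 at chr14:22836560-22849041 on the plus strand. TIMP1 lies at chrX:47582408-47586789 on the plus strand, inside SYN1, which runs on the opposite strand with no exon in common. TIMP2 lies at chr17:78852977-78925387 on the minus strand and TIMP3 at chr22:32801705-32863041 on the plus strand, inside SYN3 on the opposite strand, again with no exon in common. PLAU lies at chr10:73909177-73917496 on the plus strand, PLAUR at chr19:43646095-43670547 on the minus strand and PLAT on chromosome 8.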

How the data were processed

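RNA of 24 SW1783 libraries was sequenced with a directional kit as 100 bp paired reads. Per the labels and the study's methods, the authors checked the raw reads with FastQC 0.11.9 and trimmed them with Trim Galore 0.6.6. They aligned the reads with STAR 2.7.9a to GRCh38 and deposited RSEM 1.3.3 expected counts per gene, without normalization. Of these counts 10.9% are not whole. The authors' strand setting is not given in the sources used here. Here these were rounded to whole counts, and the protein-coding genes (GENCODE release 44, which holds 56558 of the 60675 genes) that passed filterByExpr were fitted per comparison with edgeR 4.0.16 in R 4.3.3 (TMM, quasi-likelihood test, 2-sided, Benjamini-Hochberg adjustment). This filter depends on the libraries compared. Every dose was tested against the vehicle libraries of the same batch. DESeq2 1.42.0, other normalizations and filters, thinning, a replicate block and leaving out each library were alternatives. The study also used DESeq2, in an earlier version. Intervals of fold changes are 95% intervals from the fit.

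The members and gene lists were chosen with earlier results of these data known. The genes named were the 10 members, up to 4 genes of each other list with the largest change in each high-dose comparison among those past the threshold with at least 1 CPM, and SERPINE2, SERPINB2, RECK, TIMP4, MMP9, MMP10, MMP13, PLG and ADAMTS1. The lead gene of a marker list and markers under 0.5 CPM are also named, and MMP17, MMP25, JUNB, JUND, FOS, FOSL2, PECAM1 and RBFOX3 were added after their values were seen and were not run under the alternatives. A gene of these lists is not reported here and enters none of the counts by list.

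Libraries of a group were not duplicates, since their counts differed beyond sampling noise (chi-square per degree of freedom 2.02 to 15.5). Nothing in the labels says that libraries came from separate cultures, so p-values measure only the spread between libraries, which may be technical. Deviations of same-numbered libraries correlated in every pair only between vehicle A and vehicle B (r of 0.27, 0.12 and 0.17), so the numbers were taken as pairing the vehicles. In the other 8 pairs of groups they did not.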

Additional observations from a re-analysis of the deposited data

Results flagged for a closer look

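The 10 genes and the other named genes that were run under the alternatives are covered here. Among them the change with high-dose EESF differed from that with high-dose WESF in 18 (edgeR's quasi-likelihood test of the interaction, Benjamini-Hochberg adjustment). Other genes named above, such as those added after their values were seen, are not in this count. Most of the 18 that lie outside the 10 genes were chosen for a large change at a high dose. Their number is therefore not set against that of all genes. Extract, dose and batch cannot be told apart in these differences, given as log2 values that are positive where EESF was higher.

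Among the 10 genes PLAT differed by 0.41 (adjusted p = 0.00023), with the sign turned between the extracts, and PLAU by 0.30 (adjusted p = 0.015). PLAT kept its call in all 12 fits without 1 library, and PLAU lost it in 1, without vehicle B replicate 2 (adjusted p = 0.0553).

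Other genes with the higher value for EESF were MMP15 at 0.34 (adjusted p = 0.0351), the plasminogen receptor PLGRKT at 0.41 (adjusted p = 0.0173), CAV1 at 0.22 (adjusted p = 0.0144) and CD44 at 0.24 (adjusted p = 0.0106). The cell type markers NES at 0.76 (adjusted p = 0.0128), SNAP25 at 0.57 (adjusted p = 0.00161), THY1 at 0.36 (adjusted p = 0.00196) and TUBB3 at 0.46 (adjusted p = 0.00239) were higher with EESF as well. The value was lower for EESF in the proteases ADAMTS4 at -0.85 (adjusted p = 0.0243), ADAMTS6 at -0.33 (adjusted p = 0.0251), ADAMTS9 at -0.65 (adjusted p = 0.00439) and MMP16 at -0.36 (adjusted p = 0.0447). It was also lower in the clearance receptor LRP1 at -0.48 (adjusted p = 0.000296) and in the AP-1 and related factors ATF3 at -0.74 (adjusted p = 0.00422), FOSB at -0.76 (adjusted p = 0.0326) and JUN at -0.36 (adjusted p = 0.00218).

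The least stable calls were those of MMP16, lost in 9 of the 12 fits without 1 library (adjusted p up to 0.121), MMP15 in 8 (up to 0.0868), FOSB in 6 (up to 0.132), ADAMTS6 in 5 (up to 0.0881), ADAMTS4 in 4 (up to 0.084) and PLGRKT in 2 (up to 0.0551). Apart from PLAU, the other genes named here kept their calls in all 12 such fits. With the replicate number as a block the calls of CD44 (adjusted p = 0.0531), ADAMTS6 (0.0606), MMP15 (0.0777), MMP16 (0.102) and ADAMTS4 (0.0579) were lost, and with DESeq2 those of MMP15 (0.103) and ADAMTS4 (0.061). With thinned counts ADAMTS6, MMP15, MMP16, PLGRKT and FOSB did not pass, MMP16 did not with all genes of the table, and ADAMTS4 did not with all groups in the fit.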

How the results depend on the processing

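Of 118 fold changes and differences past the adjusted threshold, all 1778 values under other settings kept their direction, and 107 of these lost the call. The 2 DEGs among the 10 genes, PLAUR and MMP14, stayed DEGs at both high doses in every alternative, and TIMP3 was a further one with WESF without vehicle A replicate 1. With medium-dose WESF 0 genes of the 10 passed in edgeR. DESeq2, total counts in place of TMM and a fit of all groups of the batch each gave 1 (MMP14), and leaving out 1 library gave 0 to 3, the 3 without vehicle A replicate 1 being MMP14, PLAU and PLAUR. With medium-dose EESF the count of 1 (MMP1) became 0 with DESeq2, with all genes of the table, with all groups in the fit and with thinned counts, 2 without the filter on low counts, where TIMP1 joined (adjusted p = 0.0406), and 0 to 2 when 1 library was left out. For the extracts compared at the high dose the count of 2 became 1 to 3 when 1 library was left out. The cause was not tested in any of these. Ordered by level per length, 10 of 10 genes kept their rank with total counts and 8 with the longest transcript.

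Reversed signs occurred only in values far from the threshold. With WESF high, SERPINE2 (0.00) gave 0.00 with all genes or all groups, 0.01 with thinned counts and -0.04 to 0.02 when 1 library was left out. With EESF medium, TIMP3 (0.00) gave 0.00 with DESeq2 or its size factors, -0.02 with all genes, -0.01 with all groups and -0.01 to 0.03 when 1 library was left out, and PLAT (-0.01) gave 0.00 with thinned counts and -0.03 to 0.02. The high-dose difference between extracts in MMP1 (0.04) gave -0.01 with thinned counts and -0.01 to 0.06. Leaving out 1 library also turned the sign of MMP14 in that comparison (-0.03 to 0.02), of MMP1 (-0.01 to 0.07), TIMP1 (-0.05 to 0.05) and TIMP3 (-0.05 to 0.05) with WESF medium, of RECK with EESF high (-0.03 to 0.05), and of MMP2 (-0.01 to 0.06) and PLAU (0.00 to 0.08) with EESF medium.

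With the replicate number as a block, vehicle B against vehicle A gave 1 gene of the 10 (TIMP1) in place of 0, and 478 of all genes in place of 0 (3 with DESeq2). Elsewhere the numbers do not pair the libraries, and the block ended 1 call of the 10 genes, PLAT with EESF high (adjusted p = 0.0522). A block for the vehicles alone, added after seeing the data, changed no call of the 10 genes in the high-dose comparison of the extracts. Counts over all genes moved most below the high dose. Medium-dose WESF gave 537 calls, 185 with the block, 1560, 98 and 254 without vehicle A replicate 1, 2 or 3, and 123 and 72 without WESF medium replicate 2 or 3, and 36 DEGs against 23 with DESeq2 and 9 (without WESF medium replicate 3) to 61 (without vehicle A replicate 1). Medium-dose EESF gave 98 DEGs against 33 with DESeq2 and 50 (without EESF medium replicate 3) to 164 (without vehicle B replicate 1), and its 1997 calls were 791 and 1064 without vehicle B replicate 2 or 3, and 1328 and 863 without EESF medium replicate 2 or 3. Low-dose EESF gave 35 DEGs against 6 with DESeq2, 64 without the filter and 73 with all genes of the table and 11 (without vehicle B replicate 2) to 91 (without vehicle B replicate 1), and its 1206 calls were 770 with all groups in the fit and 213 (without vehicle B replicate 2) to 2679 (without vehicle B replicate 1). The extracts differed in 3481 genes at the high dose (2245 with the block), in 27 at the medium dose (141 with DESeq2, 94 without the filter, 0 with the block, 606 with the vehicle block, and 1 without vehicle B replicate 2 to 146 without vehicle B replicate 1, with 52 without vehicle A replicate 3, 50 without EESF medium replicate 2, 26 without EESF medium replicate 1 and 4 to 6 without any of the other 7) and in 1 at the low dose (54, 21, 11 and 223, and 5 without vehicle B replicate 1).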
